A study of Mus musculus with 2 samples.

Results

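The Runx genes and Cbfb encode the subunits of core-binding factor, and they are described here by the accessible regions around them in mouse CD8+ T cells. The members are Runx3, Runx1, Runx2 and Cbfb, 4 of 21887 protein-coding genes. Each locus is the gene's span extended by 50 kb on each side, and every ATAC-seq peak overlapping it was taken. This gave 109 of 85137 control peaks and 87 of 64910 treatment peaks. The choice was made by gene name and position, not by any measured value, though earlier results of these data were known.

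A Runx protein binds DNA through its Runt domain, and CBFb, the product of Cbfb, does not touch DNA but raises the affinity of its Runx partner. In CD8+ T cells RUNX3 is known for silencing Cd4 and Zbtb7b and for its part in the cytotoxic and tissue-resident programmes. RUNX1 acts earlier, in blood stem cells and thymocytes, and RUNX2 is best known as the master factor of bone. Runx genes are transcribed from a distal and a proximal promoter, and RUNX proteins bind their own and each other's genes.

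ATAC-seq, in which a transposase tags open DNA, was carried out on CD8+ T cells with 1 library titled control and 1 titled treatment. A treatment field in the labels reads "Treatment" for the former and "Combined treatment" for the latter, and neither names an agent. The labels used here give no strain, age, sex, dose or time, the genotype field names no allele, and the series title calls the cells Peml-1. With no replicate of either library there was no test between groups, and every comparison below is between these 2 libraries. A peak that overlaps a peak of the other list by 1 bp or more is called shared.

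Both libraries had a peak within 1 kb of a gene end at 6 of 6 CD8 T cell markers (Cd3e, Cd3d, Cd3g, Cd8a, Cd8b1 and Trac). Such a peak was found in control and treatment at 1 and 1 of 4 B cell markers, 4 and 2 of 4 myeloid markers, 0 and 0 of 2 NK markers and 2 and 1 of 3 erythroid markers. The part of other cells in the differences below was not tested. Read totals were not used here, so depth is known only from the peaks. The fold enrichment and −log10 p-value of a peak together give the whole number of reads covering its summit, for 99.994% of control and 99.98% of treatment peaks. The lowest local background per base of the narrowest peak was 1.006 times as high in treatment as in control, so both lists rest on a similar background depth if the peak caller ran alike. Median summit coverage was 220 reads in the control list and 189 in the treatment list.

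The distal promoters of the 3 Runx genes carry the same pair of Runx binding sequences, and these are shown because a peak lay over each of them. RefSeq windows of build GRCm38, the assembly also called mm10, hold 250 bases before and 50 after a start, and 6 such windows matched the 4 genes. Capitals mark the longest run of bases common to the 3 windows and any other AACCACA, which contains the reverse complement of the Runx core TGTGGT. Sequences are written 5′ to 3′ in the direction of transcription.
Runx3 distal start, chr4:135120395-135120694, plus strand: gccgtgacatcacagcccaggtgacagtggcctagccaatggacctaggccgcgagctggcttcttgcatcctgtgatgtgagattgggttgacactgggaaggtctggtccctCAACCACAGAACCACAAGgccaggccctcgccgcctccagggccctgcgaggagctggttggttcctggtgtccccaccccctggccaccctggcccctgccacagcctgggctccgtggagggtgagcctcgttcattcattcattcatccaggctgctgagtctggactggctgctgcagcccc
Runx1 distal start, chr16:92826025-92826324, minus strand: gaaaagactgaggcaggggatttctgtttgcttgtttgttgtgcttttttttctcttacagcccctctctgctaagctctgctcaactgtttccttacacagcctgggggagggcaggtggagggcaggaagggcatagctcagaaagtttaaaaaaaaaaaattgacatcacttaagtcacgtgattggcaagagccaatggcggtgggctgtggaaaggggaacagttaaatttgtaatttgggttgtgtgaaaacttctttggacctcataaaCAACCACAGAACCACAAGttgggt
Runx2 start, chr17:44814578-44814877, minus strand: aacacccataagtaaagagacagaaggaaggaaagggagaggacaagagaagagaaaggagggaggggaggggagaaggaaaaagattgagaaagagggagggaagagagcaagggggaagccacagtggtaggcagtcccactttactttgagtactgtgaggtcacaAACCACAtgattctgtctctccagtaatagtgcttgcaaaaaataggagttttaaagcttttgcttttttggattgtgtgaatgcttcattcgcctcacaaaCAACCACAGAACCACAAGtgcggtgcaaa

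The common run is 18 bases long, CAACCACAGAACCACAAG, and in it 2 copies of AACCACA stand with 1 base between them. On either strand this run was found in 4 of 32851 windows (0.0122%): the 3 Runx windows and that of Gm16225, a noncoding gene whose window overlaps that of Runx3. AACCACA alone was found in 5.27% of the windows and the shorter ACCACA, which lies inside it, in 16.8%. The run begins 136 bases before the start in Runx3, and 26 and 21 bases after the start in Runx1 and Runx2. Runx2 holds a further AACCACA that begins 81 bases before the start.

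The proximal starts of Runx3 and Runx1 and the start of Cbfb hold no AACCACA or ACCACA on either strand of their windows. A peak lay over each of them too. The 2 proximal Runx windows are printed for contrast, because their base composition is unlike that of the distal starts. Runx1 has 69.0% G and C and 35 CG pairs in its proximal window, and 45% and 2 in its distal window. Runx3 has 77.3% and 45 in the proximal window, and 63.7% and 8 in the distal window. The Runx2 window, with 45.3% and 2, resembles the distal Runx1 window, and the Cbfb window, with 69.7% and 30, the proximal one. The median of all windows is 52.7% G and C.
Runx3 proximal start, chr4:135152295-135152594, plus strand: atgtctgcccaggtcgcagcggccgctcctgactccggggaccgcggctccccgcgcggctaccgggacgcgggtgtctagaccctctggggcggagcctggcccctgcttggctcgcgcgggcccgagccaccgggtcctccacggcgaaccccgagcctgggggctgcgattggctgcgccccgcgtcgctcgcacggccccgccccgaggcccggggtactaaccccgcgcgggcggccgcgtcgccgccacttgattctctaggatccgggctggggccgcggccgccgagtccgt
Runx1 proximal start, chr16:92697280-92697579, minus strand: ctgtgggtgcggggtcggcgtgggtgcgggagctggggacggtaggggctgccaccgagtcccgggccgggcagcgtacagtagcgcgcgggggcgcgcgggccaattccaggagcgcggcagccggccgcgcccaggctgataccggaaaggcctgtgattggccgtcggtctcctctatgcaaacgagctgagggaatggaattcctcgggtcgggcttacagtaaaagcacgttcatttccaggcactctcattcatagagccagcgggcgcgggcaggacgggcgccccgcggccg

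All 6 windows were covered by a peak in both libraries, as were 56.3% of the windows of protein-coding genes, with 3.68% covered in control only. The levels differed widely between members. At the distal start of Runx3 the peak had a summit coverage of 2414 reads in control (exact 95% Poisson interval 2319 to 2512, for counting error only) and 1984 in treatment (1898 to 2073). Cbfb had 1991 reads (1905 to 2080.4) and 1739 (1658 to 1823). These were the most heavily covered summits of their loci in each library, and the control value was the higher at both.

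At the distal start of Runx1 the order was the other way, with 788 reads in control (734 to 845) and 827 in treatment (772 to 885), and these intervals overlap. The peak over the proximal start of Runx1 had 779 reads (725 to 836) and 496 (453 to 542), and that of Runx3 707 (656 to 761) and 551 (506 to 599). These are values at the summits, which for Runx1 stood 1457 and 1469 bp before the proximal start. For Runx3 the summit stood 1261 bp after it in control and 92 bp before it in treatment. The Runx2 peak was the weak one, with 90 reads in control (72.4 to 110.6) and 44 in treatment (31.97 to 59.1). Summit coverage was thus higher in treatment for the peak over 1 of the 6 starts, and there by less than the counting error. Over the genome it was higher in treatment in 14.8% of shared peak pairs.

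**Figure D1:**
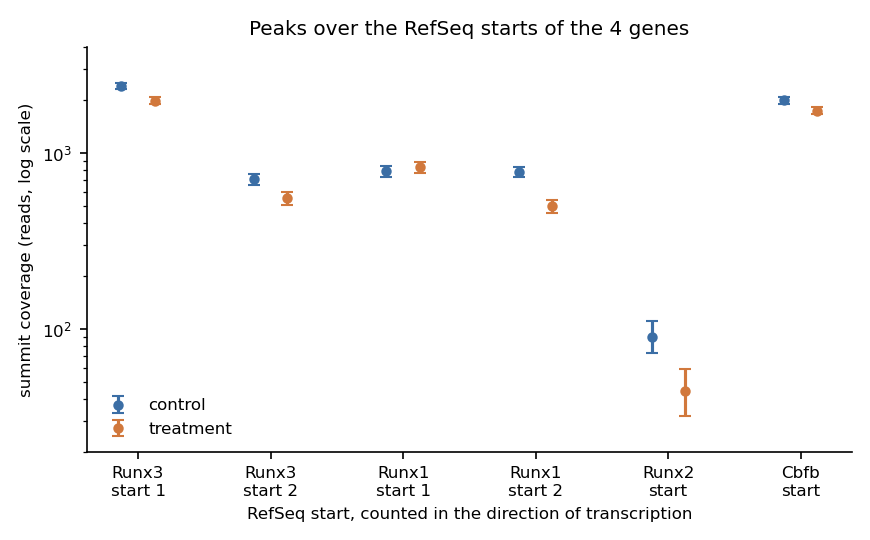
Summit coverage in reads on a log scale of the peak over each RefSeq start, in control (blue) and treatment (orange). Summits of the peaks over the proximal starts of Runx1 and Runx3 stood up to 1469 bp from the start. Bars are exact 95% Poisson intervals for counting error, and the Runx2 start, at 90 and 44 reads, lies far below the other 5.

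The paired Runx sequence lay inside a control peak at all 3 distal starts. It lay inside a treatment peak at Runx3 and Runx1 but not at Runx2. There the control peak ran over 555 bp, from 44814519 to 44815073 on chromosome 17, and the treatment peak over 239 bp, from 44814713 to 44814951, which left the run and the other AACCACA of Runx2 (44814589 to 44814708) outside it. Both summits stood at the same base, 124 bp before the start. The treatment peak had a fold enrichment (summit coverage over local background, as the authors' caller gives it) of 2.80 against 6.01 in control. Peak edges are calls on coverage, and a match outside the edge does not show that no reads lay there.

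Over the whole loci, every member had fewer peaks in treatment in the lists as deposited, though not with lists of equal length. Runx3 had 31 in control and 25 in treatment, Runx1 26 and 19, Runx2 38 and 31, and Cbfb 14 and 12. Of all protein-coding genes 66.7% had fewer peaks in treatment at a locus drawn alike and 5.32% had more, so a deficit was the usual case. That base includes 3161 genes with no peak in either library, and 14589 of the 18726 others had fewer peaks in treatment. The ratio of treatment to control peaks was 0.806 at Runx3, 0.731 at Runx1, 0.816 at Runx2 and 0.857 at Cbfb, against a median of 0.800 over genes with a control peak and quartiles of 0.667 and 0.923. All 4 lie between those quartiles. With lists of equal length, made by keeping the 64910 control peaks of highest −log10 p-value, the ratio was above 1 at Runx1 (1.06), Runx2 (1.07) and Cbfb (1.09) and was 1 at Runx3, as was the median over all genes.

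The sequence covered by peaks showed the same order of libraries. It was 22.2 kb in control and 17.8 kb in treatment at Runx3, 17.1 and 12.99 at Runx1, 21.96 and 19.6 at Runx2, and 10.5 and 8.77 at Cbfb. The 4 ratios ran from 0.760 at Runx1 to 0.893 at Runx2, and the ratio over all peaks of the genome was 0.766. The Runx2 ratio was 1.04 with lists of equal length.

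**Figure D2:**
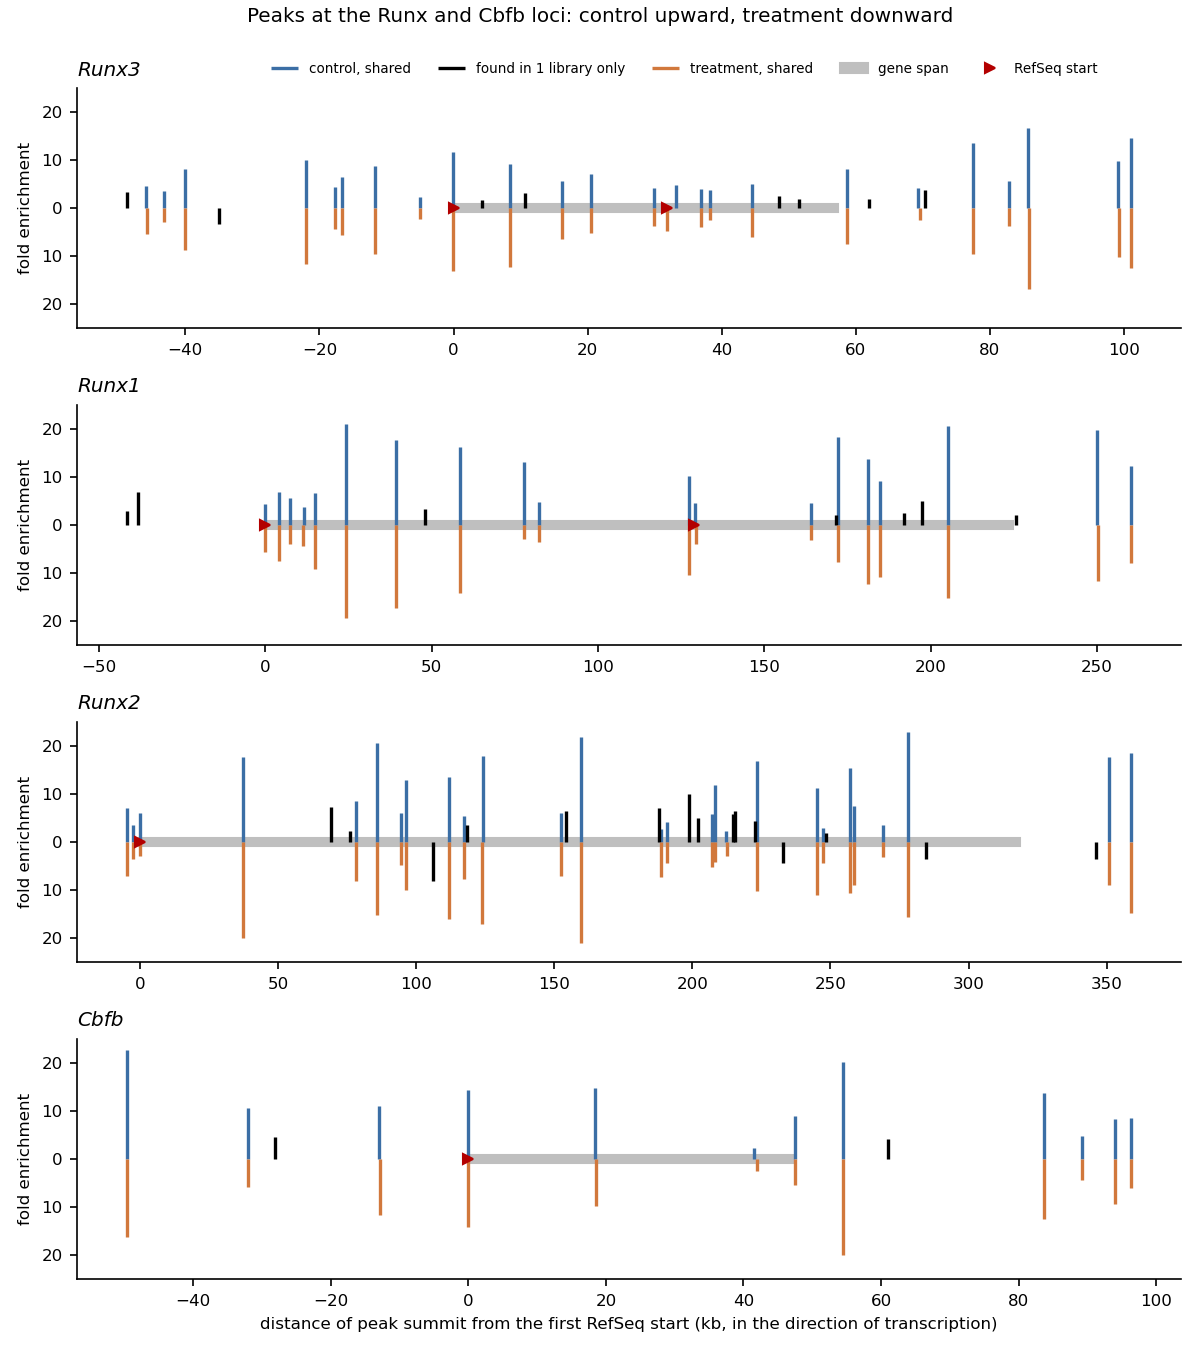
Each line is a peak, placed by the distance of its summit from the first RefSeq start in kb and drawn to its fold enrichment, with control upward and treatment downward. Black lines are peaks found in 1 library only, grey bars the gene spans and red arrowheads the RefSeq starts, and most black lines point upward.

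Runx3 stood out among the members for how densely it was packed with peaks. Its locus held 19.7 control peaks and 15.9 treatment peaks per 100 kb, more than 98.8% and 97.8% of protein-coding genes. Runx1 had 8.01 and 5.85, Runx2 9.07 and 7.402, and Cbfb 9.50 and 8.15, against medians of 6.43 and 4.77 over all genes. The high totals at Runx1 and Runx2 thus go with their length, since their spans are 224.6 and 318.8 kb, and that of Runx3 is 57.3 kb. By number alone Runx2 had more control peaks than 99.7% of genes, Runx3 than 99.1% and Runx1 than 97.9%.

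The peaks of Runx3 (gene ID 12399, chromosome 4, 135120645 to 135177990, plus strand) lay on both sides of the gene as well as in it. Before the gene's start there were 10 peaks in each library, counting that at the distal start, inside it 12 in control and 8 in treatment, and after its end 9 and 7. Upstream, 9 of the 10 control peaks were shared. Beyond the promoter, the strongest upstream summit by fold lay 21.99 kb before the distal start, with 10.03 in control and 11.5 in treatment and coverages of 1268 and 1183 reads. The summit 40.1 kb before the start had more reads in control, 1770, and 1134 in treatment.

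The highest fold at the Runx3 locus lay not at a promoter but beyond the far end, at 135205907 to 135206778, 85.7 kb after the distal start. It was 16.6 in control and 16.7 in treatment, and the coverages were 1803 and 1274 reads. The next in control, with 14.7 and 12.4, lay at 135221395 to 135221961 inside Clic4, a chloride channel gene whose span enters the locus, so this peak cannot be assigned to Runx3 by position. After it in control came a summit 77.4 kb after the start, with 13.6 and 9.43. In treatment the distal start, with a fold of 12.98, took second place. The far end of Runx3 had 1 peak within 1 kb in each library, at 135178916 to 135179743 in control, with 476 reads, and 215 in treatment.

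The proximal Runx3 start lay under the widest peak of any member, 2593 bp in control and 2494 bp in treatment. Its control summit stood 1261 bp after the proximal start and its treatment summit 92 bp before it, although the peaks overlap almost wholly and their folds were 4.81 and 4.83. A peak downstream, at 135158766 to 135160424, showed the greatest difference in width, 1659 bp in control and 242 bp in treatment, with 313 and 132 reads.

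Runx3 peaks found in 1 library only were low by fold but not all by coverage. There were 7 in control, with folds of 1.70 to 3.85 and 63 to 398 reads, and 1 in treatment, with 3.33 and 169 reads. Their shares, 22.6% and 4%, compare with 29.2% of all control peaks and 6.8% of all treatment peaks. In control the highest by fold were at 135190808 to 135191023 (3.85, 63 reads), 135071923 to 135072103 (3.32, 398 reads) and 135131204 to 135131478 (3.17, 210 reads), and in treatment the 1 such peak lay 35.0 kb before the start. None of them lay at a start or gene end.

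Runx1 (gene ID 12394, chromosome 16, 92601466 to 92826074, minus strand) had 20 of its 26 peaks in the gene in control and 16 of 19 in treatment. Its strongest summit by fold in both libraries lay in the gene between the promoters, 24.3 kb after the distal start, at 92801451 to 92802255 in control. It had a fold of 21.02 in control and 19.4 in treatment, and 1129 and 948 reads. An intronic enhancer downstream of the distal Runx1 promoter is known from blood stem cells, and whether this peak is that element was not tested. Another summit 39.1 kb after the start had folds of 17.7 and 17.2 and 818 and 758 reads. At these 2 peaks coverage in treatment was 0.840 and 0.927 of that in control, above the median of 0.705 over all shared peaks of the genome.

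Some other strong Runx1 peaks in control had far fewer reads in treatment, and others did not. The summit 205.1 kb after the distal start, second by fold in control with 20.5, had 1180 reads in control and 407 in treatment. One 172.04 kb after the start had 403 and 121 reads and folds of 18.3 and 7.60. The lowest ratio at any member was at 92748256 to 92748789, 77.6 kb after the start, where 239 control reads and 46 treatment reads gave a ratio of 0.192 (95% interval 0.137 to 0.265, for counting error only). The third by fold in control, with 19.8, lay beyond the far end, 250.1 kb after the start, with 393 and 216 reads. By contrast, the summit 58.4 kb after the start had a control fold of 16.2, and 302 and 243 reads. That 181.2 kb after it had a fold of 13.7, and 1127 and 804 reads. Their ratios, 0.805 and 0.713, were above the genome median.

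The peaks just after the distal Runx1 start did not all go one way. The summit 14.96 kb after the start had 268 control reads and 363 treatment reads, which is a ratio of 1.35 (1.15 to 1.59). That 4.06 kb after the start had the most reads at the locus, 1448 and 1252. Between them, the summit 7.38 kb after the start had 784 and 425, a ratio of 0.542 (0.481 to 0.611), and that 11.5 kb after it 262 and 237. The widest Runx1 peak was that of the proximal start, 1822 bp in control and 1803 bp in treatment, and its summits stood 1457 and 1469 bp before that start. The distal start's peak was nearly as wide, with 1644 and 1630 bp.

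All 7 Runx1 peaks found in 1 library only were in control, 26.9% of its control peaks against 29.2% of all control peaks. The highest by fold lay before the gene, 38.4 kb upstream of the distal start (6.86, 103 reads), where treatment had no peak. The next were at 92628533 to 92629118 (5.08, 76 reads) and at 92778019 to 92778226 (3.30, 49 reads), both in the gene. Of the 3 control peaks before the gene, only that at the distal start was shared. Runx1 had no peak within 1 kb of its far end in either library.

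Runx2 (gene ID 12393, chromosome 17, 44495987 to 44814797, minus strand) had the most peaks, 34 of 38 in the gene in control and 26 of 31 in treatment. The strongest by fold in control lay 277.9 kb after the start, with a fold of 22.9 and 664 reads, and 15.6 and 285 in treatment. The strongest by fold in treatment, 159.8 kb after the start, had almost equal values in both, with 1539 and 1512 reads and folds of 21.8 and 20.95. The summit 124 kb after the start had 476 and 447 reads. The summit 85.99 kb after the start, with a control fold of 20.6, had 678 and 312 reads.

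Supt3, which encodes a subunit of a transcriptional coactivator complex, overlaps the upstream part of Runx2, and 4 peaks of each library lie within its span. The peak at 44776725 to 44777838 covers the RefSeq start of Supt3 inside Runx2, with 1509 reads in control and 1577 in treatment, and cannot be assigned to either gene by position. The widest Runx2 peak lay at 44734351 to 44736727, 78.2 kb after the start, and measured 2377 bp in control and 2248 bp in treatment, with 1263 and 943 reads. The RefSeq promoter table used here gives 1 start of Runx2. By fold and reads this internal peak exceeded the one at that start in both libraries.

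Runx2, with the most peaks, also had the most single-library peaks, 11 of 38 in control and 4 of 31 in treatment. These are 28.9% and 12.9%, against 29.2% of all control peaks and 6.8% of all treatment peaks. The strongest by fold in control were at 44615563 to 44615948 (fold 9.91, 163 reads), 44745490 to 44745683 (7.39, 111 reads) and 44626541 to 44626939 (7.06, 106 reads). The first of these had the highest fold of any member's single-library peaks. In treatment the strongest by fold lay at 44708164 to 44708869 (8.11, 132 reads), 44581671 to 44581965 (4.36, 69 reads) and 44530032 to 44530282 (3.61, 57 reads). All of these are in the gene.

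Of the 11 control-only peaks of Runx2, 6 lay in 35.1 kb of the gene, from 44591795 to 44626939, with folds of 4.37 to 9.91. This stretch was picked after its values were seen. It held 11 control peaks in all, of which the other 5 were shared, and 5 treatment peaks, all of them shared. Near its end the libraries differed in which of 2 neighbouring peaks was the stronger. At 44626012 to 44626246 control had 39 reads and treatment 119, a ratio of 3.05 (2.11 to 4.50) and the highest at any member. The control-only peak with 106 reads begins less than 0.5 kb further on. The other Runx2 peak with more reads in treatment beyond counting error was that at 44567029 to 44567383, with 457 and 596.

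Cbfb (gene ID 12400, chromosome 8, 105170674 to 105217989, plus strand) has a span of 47.3 kb. With the gene's span alone it had 3 peaks in each library, and all 3 were shared. They were the peak at the start, 1653 bp wide in control and 1593 bp in treatment and the widest of the locus in both, that 18.5 kb after it, with 237 and 155 reads, and that 41.6 kb after it, with 35 and 39. The far end had 1 peak within 1 kb in each library, with 134 and 87 reads.

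Most other peaks of the Cbfb locus lay in or next to neighbouring genes. The highest fold in control, 22.6, and 16.3 in treatment, was 49.6 kb before the start, at the outer edge of the locus. The highest in treatment, 20.01, and 20.1 in control, lay 54.5 kb after the start, at the upstream end of D230025D16Rik. The spans of Ces4a, D230025D16Rik, B3gnt9, Tradd and Fbxl8 held 7 control summits and 4 treatment summits. Without them Cbfb had 7 peaks in control and 8 in treatment, an alternative added after seeing the data that turned the order. The shared peak at the upstream end of D230025D16Rik had its summit inside that gene in control and just outside it in treatment, so it was counted in treatment alone there. Both control-only peaks lay inside such neighbours, with a fold of 4.62 in Ces4a and 4.16 in D230025D16Rik.

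The share of peaks found in 1 library only was near that of the whole lists. Over the 4 loci it was 24.8% in control (27 of 109, exact Clopper-Pearson 95% interval 17.002 to 33.96%) and 5.75% in treatment (5 of 87, 1.89 to 12.9%). Of all control peaks 29.2% had no treatment peak, and of all treatment peaks 6.8% had no control peak. At the 50 kb loci of all protein-coding genes these shares were 28.4% and 6.45%. By member the control share was 22.6% at Runx3, 26.9% at Runx1, 28.9% at Runx2 and 14.3% at Cbfb. The treatment share was 4% at Runx3, 12.9% at Runx2 and 0 at Runx1 and Cbfb, where 0 of 19 and 0 of 12 allow up to 17.6% and 26.5%. Each interval contains the share of its whole list. With lists of equal length the excess in control was gone: 12.0% of control peaks (10 of 83) and 16.1% of treatment peaks (14 of 87) had no partner, against 16.7% and 16.1% of the whole lists. The control and treatment shares were then 24.1% and 29.0% at Runx2, 5.56% and 10.5% at Runx1, 0% and 8.33% at Cbfb, and 8% in each at Runx3.

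**Figure D3:**
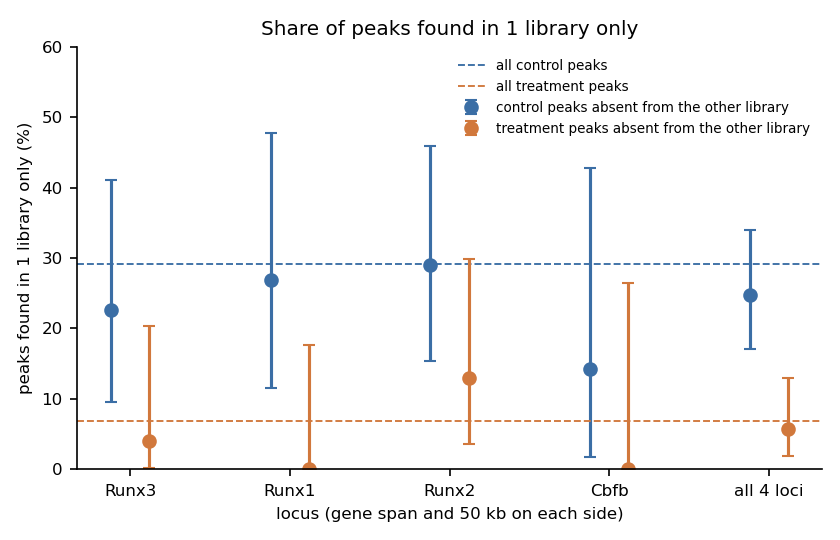
Percentage of peaks with no overlapping peak in the other library, by locus, for control (blue) and treatment (orange), with exact 95% binomial intervals. Dashed lines mark all control peaks (29.2%) and all treatment peaks (6.8%), and every interval crosses the line of its own library.

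All 82 shared control peaks of the 4 loci overlapped exactly 1 treatment peak and the reverse, so no peak was split. Treatment coverage was the higher in 11 of these 82 pairs (13.4%), and in 14.8% of 58875 such pairs over the genome. The median ratio of treatment to control coverage was 0.710 at the members and 0.705 over the genome. By member it was 0.665 at Runx3, 0.685 at Runx1, 0.770 at Runx2 and 0.754 at Cbfb.

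The pairs with more reads in treatment were unevenly spread over the members. Runx2 had 8 of 27, Runx1 2 of 19, Cbfb 1 of 12 and Runx3 0 of 24. The interval of the ratio lay above 1 in 3 of the 82, of which 2 were at Runx2 and 1 at Runx1, and in 6.86% of pairs over the genome. It lay below 1 in 60 of 82 (73.2%), against 70.5%. By member it lay below 1 in 22 of 24 at Runx3, 11 of 12 at Cbfb, 13 of 19 at Runx1 and 14 of 27 at Runx2. These counts differ between members, but pairs of 1 library share its depth and preparation and are not replicates.

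**Figure D4:**
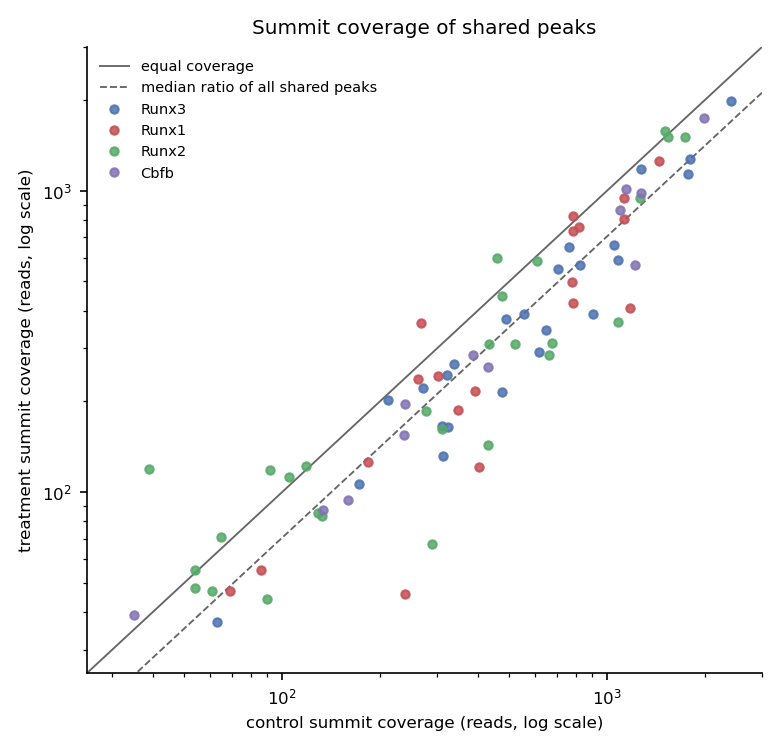
Treatment against control summit coverage in reads, both on log scales, for the 82 shared peaks of the 4 loci. The solid line marks equal coverage and the dashed line the median ratio over the genome (0.705), and 11 points lie above the solid line.

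The summits of shared peaks nearly coincided. They stood a median of 6 bp apart at the members and more than 150 bp apart in 4 of 82 pairs (4.88%), against 5.63% over the genome. Treatment peaks were the wider in 18 of 82 pairs (21.95%), against 20.9% over the genome, and Runx2 had 10 of the 18. Median widths over all locus peaks were 567 bp in control and 669 bp in treatment at Runx3, 574 and 586 at Runx1, 443 and 500 at Runx2, and 598 and 631 at Cbfb. These medians, over shared and single-library peaks together, were higher in treatment, while most shared peaks were narrower there.

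Fold enrichment and coverage ranked the loci unlike each other. The median Runx3 peak stood at percentile 26.8 of the control list and 38.03 of the treatment list by fold, the lowest of the members, and at 57.3 and 52.98 by −log10 p-value. The median coverage at Runx3 was 398 reads in control and 345 in treatment. At Runx2 it was 148 and 132, with fold percentiles of 40.9 and 51.9. Local background was high at the Runx3 promoter, 205 reads in control and 152 in treatment, so that its fold of 11.7 stood for 2414 reads. At the strongest Runx2 peak in control a fold of 22.9 stood for 664 reads.

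Genes of the same pathway were taken from 2 fixed lists, measured at the same 50 kb loci. Of 14 partners and corepressors, 12 had fewer peaks in treatment, 2 as many and 0 more, with a median ratio of 0.707. Over all protein-coding genes 66.7% had fewer and 5.32% more, a base that includes 3161 genes without a peak in either library. Of the 18726 others 14589 had fewer, and the median ratio was 0.800 over genes with a control peak. Among the 14 listed are the Groucho family genes Tle1 to Tle5, the cofactor Ets1, which binds DNA beside RUNX1, and the acetyltransferases Ep300 and Crebbp. Hipk2, a kinase that modifies RUNX1, had the largest deficit, 21 peaks in treatment and 34 in control. Ets1 had 33 in each library, with 7 treatment-only and 6 control-only peaks, and Tle1 had 2 in each. With lists of equal length 9 partners had fewer peaks in treatment and 4 more, against 31.1% and 28.7% of all protein-coding genes, and Ets1 then had 33 in treatment and 24 in control.

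Of 16 target genes known from T cell studies, 13 had fewer peaks in treatment, 1 as many and 2 more, with a median ratio of 0.897. Of all protein-coding genes 66.7% had fewer and 5.32% more, with a median ratio of 0.800 over those with a control peak. Among the 18726 genes with a peak at such a locus in either library, 14589 had fewer. Cd4, which RUNX3 silences in the CD8 lineage, held 14 treatment and 17 control peaks. Zbtb7b, which encodes the CD4 lineage factor ThPOK, had 13 and 14, and Cd8a had 23 and 24. Il7r, the receptor chain for IL-7, had the largest excess, 15 and 11. Itgae, the integrin CD103 of resident cells, had 19 and 17. The largest deficit was at Tbx21, which encodes T-bet, with 19 and 23. The summed peaks of the list, 261 and 284, gave a ratio of 0.919, which was 1.10 with lists of equal length and 1.05 with gene spans alone. With lists of equal length 8 targets had more peaks in treatment and 4 fewer. Of all protein-coding genes 28.7% then had more and 31.1% fewer, a base that includes genes without a peak. Cd4 was then at 14 and 12, Cd8a at 23 and 18 and Tbx21 at 19 and 19.

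**Figure D5:**
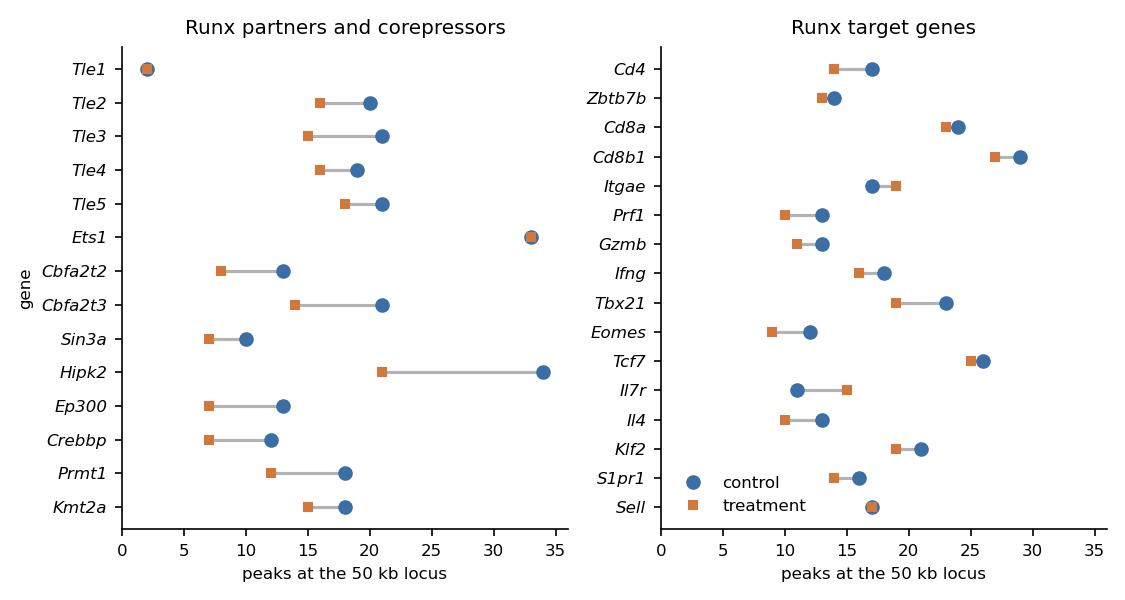
Number of peaks at the 50 kb locus of each gene in control (blue circles) and treatment (orange squares). Partners and corepressors are on the left and target genes on the right, and in the lists as deposited treatment exceeds control at Itgae and Il7r alone.

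Many genes had peak numbers like those of the members, which is a likeness over 2 libraries and nothing more. Measured by the distance between log2 peak numbers, Fli1 and Ankrd44 equalled Runx2 with 38 control and 31 treatment peaks. Atxn7l1 and Tmem131l were among 6 genes that equalled Runx1 with 26 and 19. For Runx3, 8 genes had the same 31 and 25, among them Pcdhga5 and Pcdhgb2 of the protocadherin gamma cluster, whose loci overlap each other. For Cbfb 160 genes had the same 14 and 12, among them Stau1 and Gfpt1.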

How the data were processed

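Per the submitters' processing notes, the authors used cutadapt 2.5, Bowtie2 2.3, Picard 2.20 and MACS2 on build mm10. Read filters, duplicate removal, any transposase shift and the caller's settings are not given in the sources used here. Unremoved duplicates would make the counting intervals too narrow, and an unmade shift would move summits by a few bases. The deposited narrowPeak lists, called per library, hold for each peak a score, the fold enrichment as a ratio, and −log10 p-values and −log10 q-values (lowest 2.00).

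Peaks outside chromosomes 1 to 19, X and Y were left out. Gene spans and promoter windows came from RefSeq tables of GRCm38.p6, and all 4 genes, all 30 listed pathway genes and all 19 marker genes matched. Summit coverage k and background b were solved from fold = (k + 1)/(b + 1) and the Poisson tail, to within 0.001 in −log10 p. Overlap, locus counts and coverage were tested on simulated data. Folds and coverages are set side by side between lists, with no test. Intervals of coverage ratios are exact binomial.

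The peaks named are those at gene ends, the 3 highest by fold, the 3 highest found in 1 library only and the widest, per member and library, and other peaks were picked after their values were seen. The members and lists were chosen with earlier results of these data known. Alternatives were other flanks, windows, q-value limits, list lengths and overlap rules. Python 3.11.15, numpy 2.4.6, pandas 2.3.3 and scipy 1.17.1 were used.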

Additional observations from a re-analysis of the deposited data

How the results depend on the processing

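Of 146 values recomputed under alternatives, 125 did not turn and stayed within 1.5 times, their interval or 10 percentile points, 14 moved further and 7 turned. Widths, shares, percentiles and gene-end counts were judged per library, so a changed order between libraries is not among the 7. With shared peaks only, the median width was larger in control at Runx3 (834.5 bp, 679.5 in treatment), Runx1 (771, 586) and Cbfb (680.5, 631). At Runx2 it was 593 bp in control and 614 in treatment. The 125 include ratios of peak numbers that rose from below 1 to exactly 1. These were Cbfb with flanks of 10 kb and with gene spans alone, and Runx3 with lists of equal length. With lists of equal length the ratio of treatment to control peaks was 1.06 at Runx1, 1.07 at Runx2 and 1.09 at Cbfb, the covered ratio at Runx2 1.04 and the target ratio 1.10, and the control-only share was 8% at Runx3, 5.56% at Runx1 and 0% at Cbfb, while the treatment-only share was 8%, 10.5% and 8.33% there and 29.0% at Runx2 (24.1% in control), so that it was no lower than the control-only share at any member. That alternative holds fewer control peaks by construction. With gene spans alone the target ratio was 1.05. Leaving out summits inside other genes, chosen after seeing the data, gave 1.14 at Cbfb. With gene spans alone or flanks of 10 kb the single-library share was 0% for Cbfb in control and 0% for Runx3 in treatment. By −log10 p-value the median percentiles were 55.8 and 64.9 for Runx1 and 57.3 and 52.98 for Runx3, in control and treatment. Gene-end peaks numbered 1 at Runx3 in each library with a 500 bp window, and 2 at Runx1 in control with 2 kb. At −log10 q of at least 5 or 10, with 50% reciprocal overlap, and with summits no more than 150 bp apart, no value moved so far. No paired analysis was possible because each group has 1 library. No read totals were used, so depth is known only from the peaks. The lowest local background per base of the narrowest peak was 1.006 times as high in treatment as in control. That value holds for depth only if the peak caller ran alike, and the part of depth in the differences was not tested.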

Other observations

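Beyond 50 kb and up to 200 kb from the genes, a window added after seeing the data, Runx1 had 21 peaks in control and 11 in treatment. Runx3 had 31 and 26 there and Cbfb 28 and 20. Runx2 had 6 in control and 7 in treatment. Counts over all genes were not taken in this window, so whether these differences are unusual is not known.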
